A study of Mus musculus with 9 samples.

Results

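Naïve mouse embryonic stem cells (mESCs) were compared between passage 15 (P15) and passage 5 (P5), to find which genes differed after longer culture in the naïve state. The comparison rested on 4 of the 9 libraries of the series, namely the 2 libraries of naïve cells at P15 and the 2 at P5, which were chosen by their sample titles. The series also held primed cells at both passages, against which the change in naïve cells was tested, and 1 library of mouse embryonic fibroblasts (MEFs), which served as a reference for feeder RNA. All naïve cells came from a CBA × C57 line with a green fluorescent reporter under the distal Oct4 promoter and enhancer, grew in serum with leukaemia inhibitory factor (LIF) on MEFs that mitomycin C had inactivated, and received no other treatment. Primed cells had been made from this line by culture with Fgf2 and activin A, also on feeders, and were taken at the same passages, while the MEF library carried the same strain label. Since a single line was sequenced, with libraries that the study calls biological repeats, p-values measure the spread between libraries of that line.

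Naïve cells resemble the inner cell mass of the blastocyst. LIF acts through Stat3 and, with bone morphogenetic proteins from serum, keeps such cultures in self-renewal. Cultures in serum are mixed, with cells that drift towards primitive endoderm, towards the epiblast or, rarely and for a short time, towards a state with transcripts of the 2-cell embryo. Interferon-stimulated genes, which are switched on after interferon binds its receptor, are known to respond weakly in pluripotent cells.

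The naïve libraries had 20985136 and 20906807 counts at P5, and 14378051 and 16450941 at P15, and the MEF library had 25646547. A gene with no count in a naïve library could lie at up to 3 counts, between 0.145 and 0.217 counts per 1e6 counts (CPM), which covers counting error only. The biological coefficient of variation between libraries of a passage was 4.18%. As marker check, Pou5f1 was at 698 and 695 CPM at P5 and at 740 and 741 CPM at P15, against 0.0442 CPM in MEFs, and Zfp42 was at 208, 202, 228 and 221 CPM and at 0 in MEFs. Fibroblast transcripts were found in all naïve libraries, and whether they came from feeders was not tested. The 30 fibroblast markers had a median level of 16.2% and 16.5% of that in MEFs at P5, and of 19.5% and 21% at P15, and their summed level rose from 12056 and 12080 CPM to 19204 and 19898 CPM. The share of counts from the mitochondrial chromosome was 1.95% and 1.59% at P5 and 3.0% and 2.8% at P15. Each of these measures separated the passages without overlap, and their part in the results below was not tested. In bulk RNA, fewer cells of a type and less RNA per cell cannot be told apart.

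Few genes changed with passage. Of 15683 genes tested by edgeR's quasi-likelihood test, 175 (1.12%) differed between P15 and P5 by 2-fold or more with an adjusted p under 0.01, and are named called genes here. Of these, 64 (0.408%) were higher and 111 (0.708%) lower at P15. At any fold change, 1418 genes (9.04%) passed an adjusted p of 0.01, with 653 (4.16%) higher and 765 (4.88%) lower. Without replicate 2 of P5 these were 294 and 419, and without replicate 1 of P5 405 and 477. The median log2 fold change over all genes tested was 0.0021. In primed cells, 1859 of 15957 genes (11.7%) were called between the same passages. The interaction of passage and state, which tests whether the passage change is unequal in the 2 states, passed an adjusted p of 0.01 at 4030 of 16926 genes (23.8%). Among the called genes, the lower and the higher ones differed in how they stood in fibroblasts. Of the 64 higher genes, 46 (71.9%) had a MEF level above 2 times their mean naïve level, against 11 of the 111 lower genes (9.91%) and 19.6% of all genes tested.

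**Figure D1:**
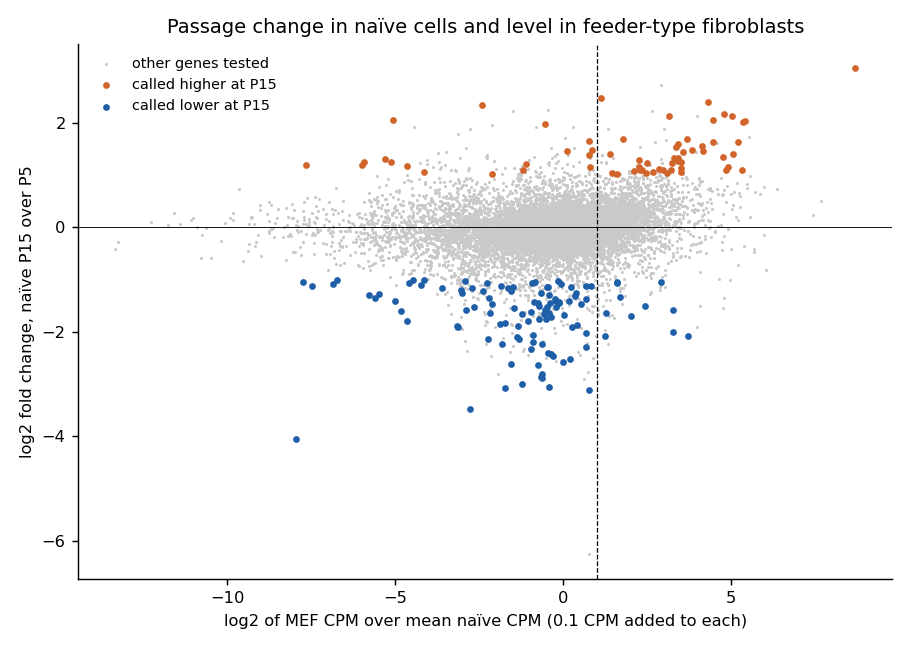
Log2 fold change of each gene tested in naïve cells (P15 over P5, y axis) against the log2 ratio of its MEF level to its mean naïve level (x axis), with genes called higher in orange and lower in blue and a dashed line at a ratio of 2. Of the called genes, 46 of 64 higher ones lie right of the line, and 11 of 111 lower ones do.

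Interferon-stimulated genes were among the genes that fell, and 21 of the 111 called lower genes were in a list of them. The list was chosen with earlier results of these data known, so its counts are no test of the group. All 35 tested members of this list of 36 had a log2 fold change below 0, with a median of -1.26. The test was passed by 27 of them, all lower at P15 (4.88% of all genes), and 21 were called lower (0.708% of all genes). The remaining member, the antiviral GTPase gene Mx1, had too few counts for the test.

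Antiviral effector genes were among the largest changes of the list. Oasl2, a 2'-5' oligoadenylate synthetase-like gene, was at 24.5 and 22.8 CPM at P5 and at 2.68 and 2.99 CPM at P15. Ifit1, which binds foreign RNA, was at 24.4 and 21.3 CPM and at 2.75 and 2.93 CPM. Isg15, a ubiquitin-like modifier, was at 31.5 and 33.7 CPM and at 7.54 and 6.36 CPM. In each of these genes the libraries of P5 lay far above those of P15 and agreed closely with each other. By edgeR's quasi-likelihood test, the log2 fold change was -3.05 ± 0.14 (SE) for Oasl2 (adjusted p = 3.51e-08), -3.00 ± 0.15 for Ifit1 (adjusted p = 6.06e-08) and -2.24 ± 0.11 for Isg15 (adjusted p = 6.45e-08). Usp18, the protease that removes Isg15 and restrains the interferon receptor, fell by 2.63 on the log2 scale, and Ifit3 and Rsad2 fell by 2.23 and 2.14.

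Factors that carry the interferon signal also fell. Irf7, the factor that amplifies the response, was at 15.4 and 13.7 CPM at P5 and at 2.83 and 2.93 CPM at P15, a log2 fold change of -2.33 ± 0.16 (SE). Stat2 and Irf9, which act together at interferon response elements, changed by -0.92 and -0.65. All 3 passed the test, and only Irf7 was called at the 2-fold threshold. Irf9 did not pass without replicate 1 of P5 or without replicate 2 of P15, at adjusted p of up to 0.019 by edgeR's quasi-likelihood test. The receptor subunits Ifnar1 and Ifnar2, looked up after these values were seen, did not pass, with log2 fold changes of 0.03 ± 0.08 and 0.06 ± 0.12. Ifnb1, which encodes interferon beta, had 0 counts in both P5 libraries and 0 and 1 at P15, under the limit of 3 counts.

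Antigen presentation genes formed a further group. H2-D1, a class I heavy chain gene, was at 81.4 and 78.0 CPM at P5 and at 25.0 and 25.1 CPM at P15, a log2 fold change of -1.67 ± 0.07 (SE). H2-K1, the other classical class I gene of this list, fell by 1.23, and B2m, the light chain, by 0.93. Psmb8, a subunit of the immunoproteasome, fell by 1.71 and the peptide transporter gene Tap1 by 0.51. Psmb9, which lies beside Tap1 and also encodes an immunoproteasome subunit, was at 3.89 and 4.55 CPM and at 4.13 and 3.37 CPM, so its libraries overlapped between passages (adjusted p = 0.63, edgeR's quasi-likelihood test). Genes of the class I family resemble each other closely, and the treatment of reads that align to several of them is not stated, so their single values are uncertain. Over the class I family by symbol, grouped after its values were seen, 12 of 14 tested genes lay below 0. Of these, 7 passed as lower (4.88% of all genes). The other 2 lay above 0, the higher at 1.24, and neither passed.

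**Figure D2:**
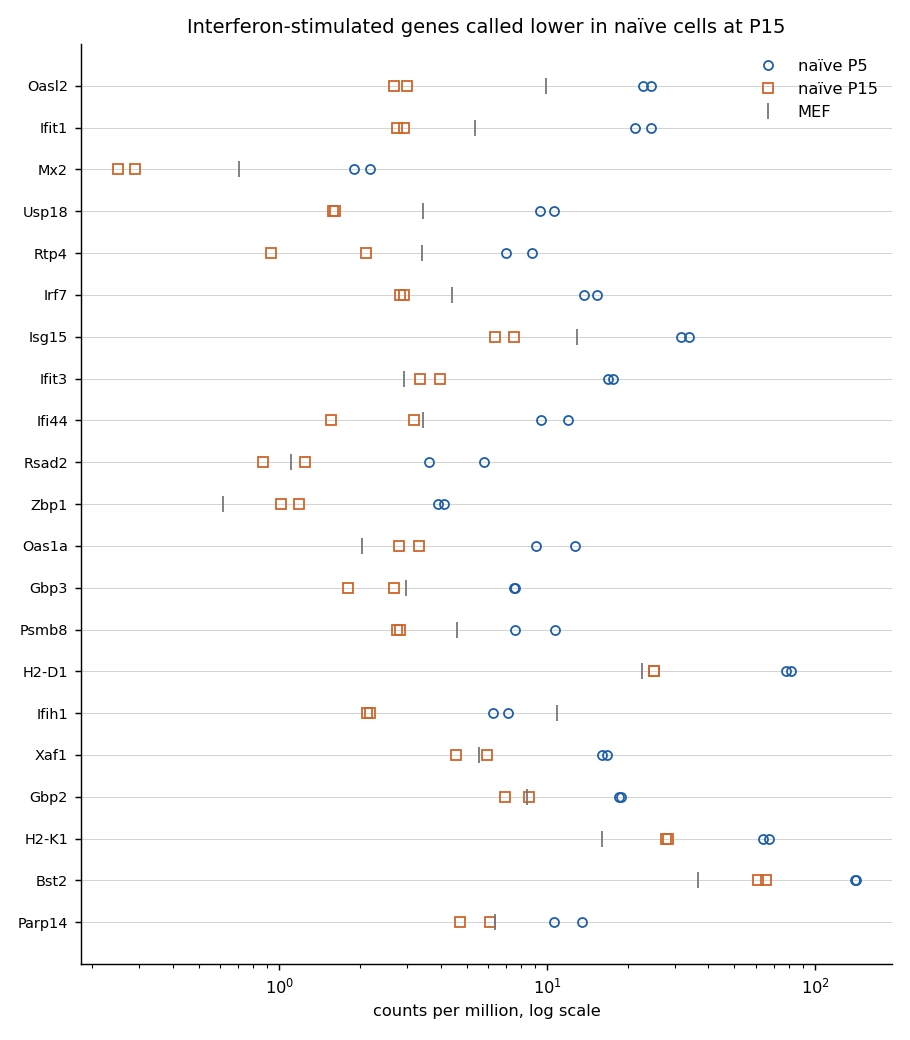
CPM (log x axis) of the 21 interferon-stimulated genes called lower, in the 2 naïve libraries at P5 (blue circles), the 2 at P15 (orange squares) and the MEF library (grey bars), in the order of their log2 fold change. The P15 libraries lie left of the P5 libraries in every row, and the rows were chosen by this change.

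Families outside the list were grouped by their symbols after their values were seen, with members of the list left out. Their counts are therefore no separate test of the list. Of all genes, 0.708% were called lower and 4.88% passed as lower. All 6 tested genes of the Ifi200 family, which sense DNA in the nucleus and cytosol, lay below 0, and 4 were called lower, with Ifi203 at a log2 fold change of -2.59. The 5 further guanylate-binding protein (Gbp) genes all lay below 0, and 2 were called lower. Of 11 further Parp genes, which encode ADP-ribosyltransferases, 8 lay below and 3 above 0, with a median of -0.20, and 3 passed as lower. The 4 genes of immunity-related GTPases (Irgm1, Irgm2, Igtp and Iigp1) were all called lower, though Irgm2 did not pass without replicate 2 of P15 and Iigp1, at -2.09 and at -2.84 without replicate 2 of P15, not without replicate 2 of P5. Igtp and Irgm2 overlap each other on chromosome 11, so their counts may not be independent. The restriction factor gene Trim30a fell by 2.86, with -4.13 without replicate 2 of P15 and -2.26 without replicate 1. Of the chemokine genes, Cxcl10 fell by 1.44, a call lost without replicate 2 of P5, and Ccl5 by 3.09, lost without replicate 2 of P15. Nlrc5, which activates class I genes, fell by 2.47.

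The promoters of the list were read for the letters of an interferon-stimulated response element, the sequence that Stat2 and Irf9 act at, and 5 of them are shown to let the shared letters be seen beside the values. The motif GAAANNGAAA was searched on both strands (TTTCNNTTTC on the reverse), with overlapping matches kept, in the 250 bases before each start of transcription in RefSeq on GRCm38.p6. It was found for 10 of the 27 tested members that had an entry (37.0%). Of all genes tested in naïve cells, 348 of the 11273 with an entry had it (3.09%), as did 3.46% of all 27025 genes with one. It was also found for 20 of 62 called lower genes outside the list (32.3%) and for 1 of 47 called higher genes (2.13%). All 10 members with the motif passed the test as lower, as did 21 of all 27 members with an entry. The last 170 bases before the start are shown 5' to 3' for 5 of them, in lower case with matches in capitals, on the strand of the gene.
Isg15 (chr4:156200819-156200988, minus strand): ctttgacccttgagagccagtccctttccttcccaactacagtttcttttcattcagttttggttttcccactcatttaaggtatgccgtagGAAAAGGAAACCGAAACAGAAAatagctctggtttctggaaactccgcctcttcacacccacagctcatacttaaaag
Ifit1 (chr19:34640719-34640888, plus strand): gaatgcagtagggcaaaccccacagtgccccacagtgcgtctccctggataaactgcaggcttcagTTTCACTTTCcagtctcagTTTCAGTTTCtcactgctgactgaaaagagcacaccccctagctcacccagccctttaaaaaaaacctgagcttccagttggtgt
Ifit3 (chr19:34583359-34583528, plus strand): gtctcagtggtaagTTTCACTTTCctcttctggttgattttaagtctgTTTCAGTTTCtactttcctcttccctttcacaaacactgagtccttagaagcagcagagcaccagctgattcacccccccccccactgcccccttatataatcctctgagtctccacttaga
Bst2 (chr8:71537473-71537642, minus strand): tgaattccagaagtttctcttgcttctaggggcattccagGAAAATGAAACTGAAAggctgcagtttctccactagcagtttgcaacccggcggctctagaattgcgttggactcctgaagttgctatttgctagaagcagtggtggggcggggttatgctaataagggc
Oas1a (chr5:120907526-120907695, minus strand): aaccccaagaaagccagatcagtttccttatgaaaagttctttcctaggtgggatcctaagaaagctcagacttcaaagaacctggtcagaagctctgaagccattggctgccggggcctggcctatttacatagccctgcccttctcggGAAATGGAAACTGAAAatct
In Isg15 there were 3 overlapping matches from 66 to 78 bases before the start, and Oas1a had 2 within 20 bases of it. In Ifit1 the 2 matches began 85 and 104 bases before the start, on the reverse strand. Among these genes Bst2, which encodes tetherin, held 2 matches and fell from 141 and 142 CPM to 61.4 and 65.5 CPM, a log2 fold change of -1.15 ± 0.05 (SE). Oasl2 and Irf7, which fell more, had no match in their window. A match is a run of letters and was not tested as a binding site.

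The fall of interferon-stimulated genes was seen in naïve and not in primed cells. Between P5 and P15 in primed cells, 29 of the 35 members passed the test as higher (23.9% of all genes) and 0 as lower (23.3% of all genes), with a median log2 fold change of 0.86. The interaction passed an adjusted p of 0.01 for 34 of 35 members, against 23.8% of all genes, with Isg15 at a difference of 4.16 (adjusted p = 2.34e-23, edgeR's quasi-likelihood test). Isg15 was at 59.2 and 62.9 CPM in primed cells at P5 and at 226 and 234 CPM at P15, so that primed libraries lay above every naïve library at both passages. In MEFs, 26 of 35 members were below the naïve mean at P5, and 10 of these were also below that at P15. Of the 90 called lower genes outside the list, 88 were tested in primed cells, where 33 passed as lower and 37 as higher, and 64 of the 90 differed by the interaction.

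**Figure D3:**
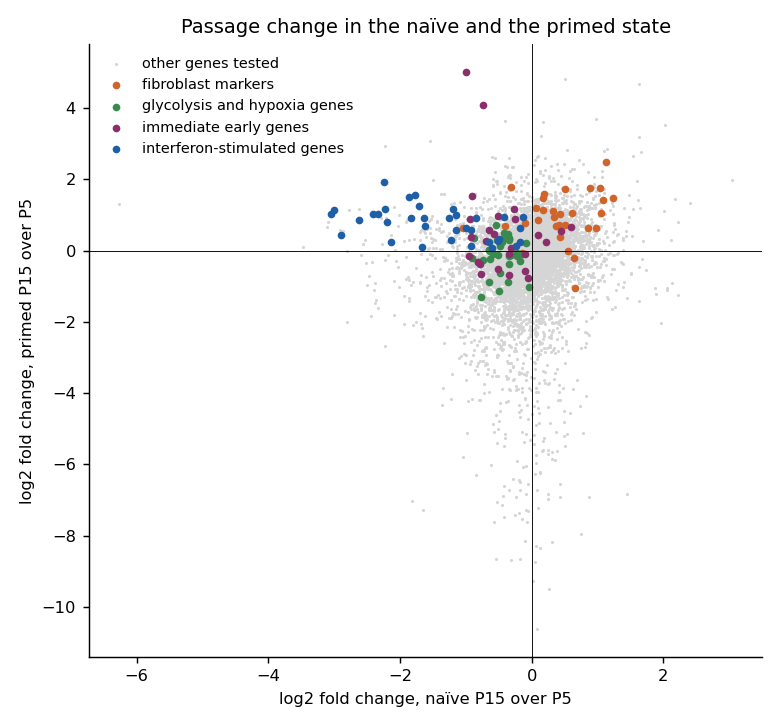
Log2 fold change between P15 and P5 in primed cells (y axis) against that in naïve cells (x axis) for each gene tested in both, with 4 gene lists in colour. Interferon-stimulated genes (blue) lie left of 0, with a median of -1.26, and above 0 in primed cells, with a median of 0.86.

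Glycolysis genes fell together, by a smaller amount. All 34 genes of glycolysis and the hypoxia response had a log2 fold change below 0, with a median of -0.46. The test was passed by 28 of them, all lower at P15 (4.88% of all genes). None reached the 2-fold threshold, where 0.708% of all genes were called lower. Egln3, a hydroxylase that marks hypoxia factors for degradation and is itself induced by them, was at 120 and 118 CPM at P5 and at 64.6 and 65.2 CPM at P15. Pgk1, which encodes an enzyme that yields ATP, was at 1666 and 1709 CPM and at 986 and 1025 CPM. Their libraries did not overlap between passages, and the log2 fold changes were -0.88 ± 0.05 (SE) and -0.75 ± 0.04. Aldoc, Ddit4 and Ldhb fell by 0.90, 0.82 and 0.77, and the last steps of the pathway, Eno1, Pkm and Ldha, by 0.45, 0.48 and 0.53. The lactate carrier Slc16a1 was lowest in change, at -0.04 ± 0.05, and Vegfa at -0.18 did not pass. In MEFs, 27 of the 34 genes were lower than in either naïve group. In primed cells 12 members passed as higher (23.9% of all genes) and 10 as lower (23.3%). The interaction passed for 24 of 34 (23.8% of all genes). Nuclear genes of oxidative phosphorylation moved little, with a median of 0.04 and 1 of 80 past the test (Atp5g1 at 0.38).

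Immediate early genes, which follow growth factor and stress signals within minutes, were lower at P15. Of 26 genes, 19 passed as lower (4.88% of all genes) and 2 as higher (4.16% of all genes), with a median log2 fold change of -0.51. Fosb, a subunit of the AP-1 factor, was at 1274 and 1263 CPM at P5 and at 645 and 619 CPM at P15, a log2 fold change of -1.01 ± 0.04 (SE), which made it the member that was called. Jun, Egr1 and Fos fell by 0.94, 0.90 and 0.73. The 2 members that rose were Ccn2, a matrix gene, by 0.44 and Myc by 0.59. Such genes also respond to handling of cells before lysis, and no value here bears on that. In primed cells 14 members passed as higher (23.9% of all genes) and 6 as lower (23.3%). The interaction passed for 19 of 26 (23.8% of all genes). For Fosb it was 6.01, the largest above 0 among genes called in naïve cells.

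Stress genes of other kinds moved less uniformly. The 2 inducible Hsp70 genes were looked up as they stood among the largest changes. Hspa1a was at 82.7 and 86.5 CPM at P5 and at 19 and 19.3 CPM at P15, and Hspa1b at 79.2 and 84.9 CPM and at 31.4 and 26.5 CPM. These neighbours on chromosome 17 are nearly identical and may share reads, and their log2 fold changes were -2.14 and -1.51. No other of the 12 Hsp70 genes tested was called, and 41 Hsp40 genes had a median of 0.14 with 1 past the test as higher and 2 as lower. Of 21 targets of p53, the factor that arrests damaged cells, 10 passed as lower (4.88% of all genes) and none as higher, with a median of -0.15. Cdkn1a, which arrests the cycle, fell by 0.42, Mdm2 by 0.48 and Trp53inp1 by 0.59, and none was called at 2-fold. Of 31 targets of Atf4, which answers amino acid shortage, 9 passed as higher (4.16% of all genes) and 2 as lower. Among them Aldh1l2, of mitochondrial folate metabolism, rose from 6.60 to 17.8 CPM (means), a log2 fold change of 1.44, and stood at 145 CPM in MEFs. Atf5 rose by 0.91 and Atf3 fell by 0.81. Antioxidant genes split into 2 higher and 3 lower of 25, and cholesterol synthesis genes into 0 and 2 of 24, where all 24 passed as higher in primed cells.

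**Figure D4:**
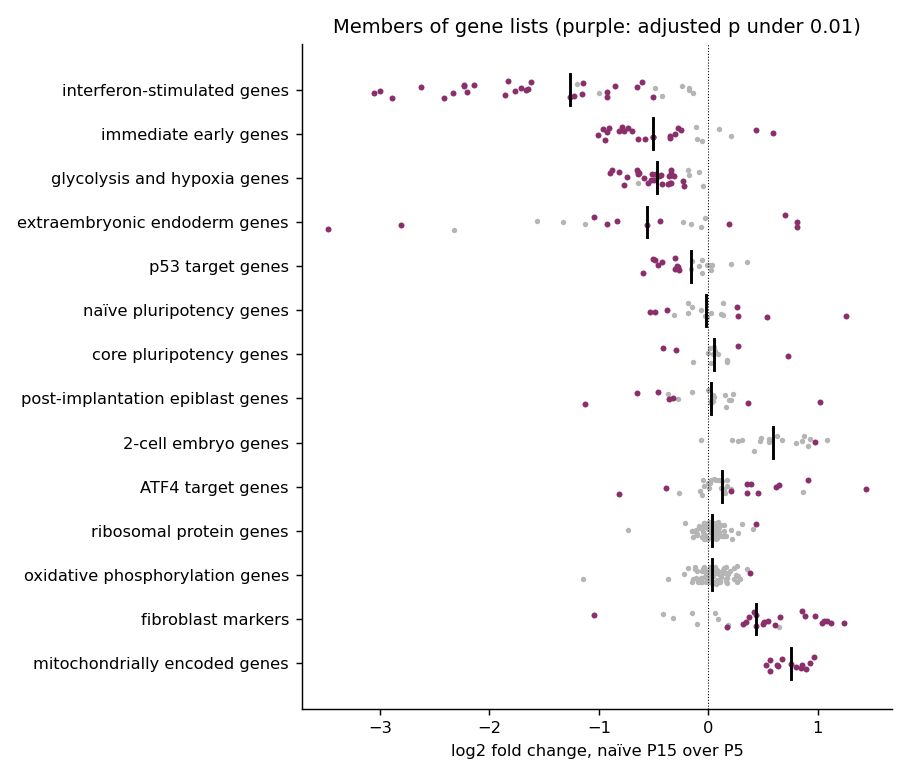
Log2 fold change in naïve cells (P15 over P5, x axis) of each tested member of 14 gene lists, in purple where the adjusted p was under 0.01, with the list median as a black bar and the median of all genes as a dotted line. The interferon list has the lowest median, -1.26, and the 13 mitochondrially encoded genes the highest, 0.75.

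Pluripotency genes changed in both directions. Of 18 naïve pluripotency genes, 4 passed as higher (4.16% of all genes) and 3 as lower (4.88% of all genes), with a median log2 fold change of -0.02, and of 15 core genes 2 passed in each direction. Nanog was at 375 and 373 CPM at P5 and at 394 and 369 CPM at P15, so the passages overlapped. Esrrb, at 516, 492, 459 and 450 CPM, and Sox2, at 411, 382, 453 and 441 CPM, did not overlap but did not pass (adjusted p = 0.026 and 0.020, edgeR's quasi-likelihood test). Klf4 and Klf2, which act downstream of LIF and Stat3 or of Erk inhibition, fell by 0.48 and 0.38, and Dppa3, a maternal factor that protects methylation in the zygote, by 0.53. Gbx2, a homeobox gene that LIF induces and that can hold the naïve state, was the member called. It was at 13 CPM on average at P5 and 31.0 CPM at P15, with a log2 fold change of 1.26 ± 0.11 (SE), against 0.265 CPM in MEFs. Dppa2, which regulates genes of the early embryo, rose by 0.73, and Dppa5a fell by 0.42. Dppa5c, annotated as a pseudogene close in sequence to Dppa5a, gave the largest fall of all named genes, -4.05, but its P5 libraries differed widely, with 64.1 and 28.3 CPM. It ranged from -4.88 to -3.34 with each library left out, and its reads may belong to Dppa5a.

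Genes of lineages beyond the naïve state moved in both directions, where 4.16% of all genes passed as higher and 4.88% as lower. Otx2, which drives the exit to the epiblast, was at 24.5 CPM on average at P5 and 11.2 CPM at P15, a log2 fold change of -1.13, with 0 counts in MEFs, which allows up to 0.133 CPM. Lefty2, Cldn6, Lefty1 and Nodal fell by 0.65, 0.46, 0.36 and 0.32, so that 5 of 21 epiblast genes passed as lower, while Foxd3 rose by 1.02 and Dnmt3a by 0.37. Fgf5 and Dnmt3b, at 0.16 and 0.04, did not pass. Of 11 streak and mesoderm genes tested, 2 passed, both higher. Cdx1, a caudal homeobox gene and Wnt target, was at 3.23 CPM on average at P5 and 7.91 CPM at P15 (log2 fold change 1.30), and Msx2, a target of bone morphogenetic proteins, at 1.67 and 3.86 CPM (1.20). Msx2 lost its call with any library left out, with an adjusted p of up to 0.107 by edgeR's quasi-likelihood test. Of 10 neural genes, 5 passed as higher and none as lower, with Sox1 at 3.86 and 9.11 CPM (1.24) and Pax6 at 0.92. Ncam1, the neural member with the smallest adjusted p, was at 413 CPM in MEFs. Pax6 and the epiblast gene Nodal passed at adjusted p of 0.0038 and 0.0048 (edgeR's quasi-likelihood test). Neither passed with every library left out in turn. In those fits the log2 fold change of Pax6 ranged from 0.76 to 1.08 and that of Nodal from -0.40 to -0.23. The trophoblast list had 2 of 12 past as higher, the keratin genes Krt8 and Krt18, by 0.55 and 0.51.

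Genes of primitive endoderm were split, and those with the largest changes fell. Cubn, which encodes the receptor cubilin of visceral endoderm, was at 12.4 and 13.1 CPM at P5 and at 1.38 and 0.94 CPM at P15, a log2 fold change of -3.47 ± 0.21 (SE) against 0.929 CPM in MEFs. Its partner Amn, at a log2 fold change of -1.33, did not pass (adjusted p = 0.014, edgeR's quasi-likelihood test). Srgn, a proteoglycan core gene, fell by 2.80, from 3.65 and 3.97 CPM to 0.87 and 0.25 CPM, with -3.90 without replicate 1 of P15 and -2.12 without replicate 2. The endoderm factor Gata4 fell by 1.05 (a call lost with any of the 4 libraries left out, with adjusted p of up to 0.056 by edgeR's quasi-likelihood test), the receptor gene Pdgfra by 0.93 and Lama1 by 0.83. Gata6, at -0.16, did not pass. The list as a whole had 7 of 19 past as lower (4.88% of all genes) and 4 as higher (4.16%), with a median of -0.56. The 4 that rose were Col4a1, Col4a2, Serpinh1 and Nid1, which encode basement membrane collagens, a collagen chaperone and a linker, and which stood at 996 to 4282 CPM in MEFs. With genes above 2 times their naïve level in MEFs left out, 12 members were tested, of which 5 passed as lower and 1 as higher.

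**Figure D5:**
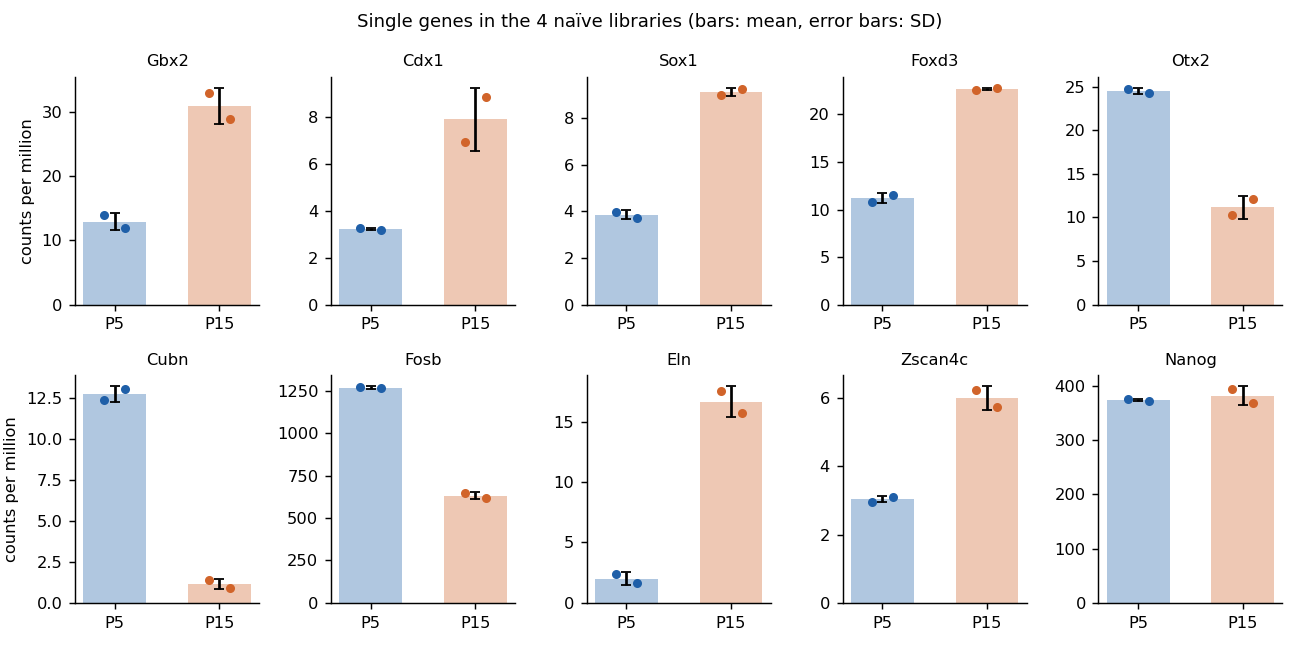
CPM of 10 genes in the 2 naïve libraries at P5 (blue points) and the 2 at P15 (orange points), with bars for the mean and error bars for the SD. Gbx2, Cdx1, Sox1, Foxd3, Eln and Zscan4c are higher at P15, Otx2, Cubn and Fosb are lower, and the Nanog libraries overlap.

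Genes of the 2-cell embryo leaned upwards but hardly passed. Of 32 listed, 18 had enough counts, 17 of these lay above 0, and their median log2 fold change was 0.59. Zscan4c, which is linked to telomere lengthening in mESCs, was at 2.97 and 3.10 CPM at P5 and at 6.23 and 5.74 CPM at P15. The libraries did not overlap, and it was the member that passed, at 0.98 ± 0.20 (SE, adjusted p = 0.0047, edgeR's quasi-likelihood test). It did not pass in DESeq2's Wald test or with any of the 4 naïve libraries left out, where its adjusted p reached 0.029. Zscan4a, Zscan4d, Zscan4e and Zscan4f had log2 fold changes of 0.81, 0.63, 0.68 and 0.21. The Zscan4 genes lie in a cluster of near copies on chromosome 7, so the split of reads among them is uncertain. Telomere genes showed no common direction, with 2 of 24 past as higher (Dkc1 and Gar1) and 2 as lower (Ctc1 and Tnks2), against 4.16% and 4.88% of all genes. Dkc1, Gar1 and Tnks2 did not pass with 3 of the 4 libraries left out in turn, and Ctc1 not without replicate 2 of P5. Tert, the catalytic subunit of telomerase, was at 18.7 and 16.2 CPM and at 14.7 and 12 CPM, a log2 fold change of -0.39 ± 0.13 that did not pass. Of 41 genes of recombinational repair, Fancd2 (-0.46) and Atr (-0.39) passed as lower, as did 4.88% of all genes, and none as higher. Atr did not pass without replicate 1 of P15 or without replicate 2 of P5.

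The 13 protein genes of the mitochondrial chromosome all passed as higher, with a median log2 fold change of 0.75, where 4.16% of all genes passed as higher. The subunit genes mt-Nd1, mt-Cytb and mt-Co1 rose by 0.96, 0.89 and 0.75. The interaction passed for 6 of the 13 (23.8% of all genes), and 12 passed as higher in primed cells too (23.9% of all genes). By contrast, medians of the autosomes and the X chromosome lay between -0.030 and 0.033, and none of the 9 tested genes of the Y chromosome passed.

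Matrix genes were among those with the largest rises. Eln, which encodes elastin (GRCm38 chromosome 5, 134702593 to 134747323), was at 2.38 and 1.64 CPM at P5 and at 17.5 and 15.7 CPM at P15, a log2 fold change of 3.04 ± 0.18 (SE), and was at 3939 CPM in MEFs. Ptn, a secreted growth factor, was at 24.1 and 25.0 CPM and at 96.2 and 102 CPM, with a log2 fold change of 2.02 ± 0.06 and 2538 CPM in MEFs. The P15 libraries lay far above those of P5 in both genes. Tnmd, Aspn, Col14a1, Srpx2, Fibin and Ogn, which encode matrix or secreted proteins, and Rgs5, a pericyte gene, rose by 2.03, 1.63, 1.62, 1.6, 1.54, 1.47 and 1.68 in that order. Of the 30 fibroblast markers, 20 passed as higher (4.16% of all genes) and 5 were called higher (0.408% of all genes). The called ones were Col5a2 at 1.24, Col3a1 at 1.13, Col1a2 at 1.09, Col5a1 at 1.06 and Col1a1 at 1.04. The markers did not rise by a common factor. Dcn, a proteoglycan gene, fell by 1.04, from 39.1 to 19 CPM on average, and Tnc rose by 0.17. Of 38 collagen genes, 17 passed as higher (4.16% of all genes) and 1 as lower (4.88%).

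Of the 64 genes called higher, 18 did not stand above 2 times their naïve level in MEFs. Among those at 0.221 CPM or less in MEFs were Cdx1, Sox1 and the Wnt target Sp5 (1.05, a call lost without replicate 2 of P5). Another was the long noncoding RNA Halr1 beside the Hoxa cluster, which rose from 13.3 and 11.1 CPM to 28.5 and 27.4 CPM (1.20). The noncoding Gm46332 (1.19) and 3830417A13Rik on the X chromosome (2.05) were at 0 in MEFs. Kcnj15, a potassium channel gene, and Col7a1, an anchoring collagen of epithelia, rose by 1.65 and 1.48 and were at 8.27 and 90.2 CPM in MEFs. Zfp951, a zinc finger gene, was at 0.73 CPM on average at P5 and 2.85 CPM at P15. For Gm46332, 3830417A13Rik and Zfp951 the change in primed cells was lower, with interactions of -6.96, -3.11 and -4.00. Gm46332 is near 0 in primed cells, so its interaction depends on the prior count of the fit.

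The remaining lists gave counts on either side of 0, beside 4.16% of all genes past as higher and 4.88% as lower. Genes of LIF and Stat3 signalling had 4 members past as higher and 4 as lower of 17, and Fgf and Erk feedback genes 2 and 3 of 19. Bmp and Id genes had 4 and 1 of 17, with Id1, Id3 and Bmp4 up by 0.50, 0.60 and 1.10. Wnt genes had 2 and 2 of 21, with Tcf7, the factor at Wnt targets, down by 0.33, and retinoid genes had 3 and 1 of 16, with the binding protein gene Crabp1 down by 1.34. Of 21 cyclins and inhibitors of G1, 6 rose and 2 fell, among them Ccnd2 by 0.94, at 1074 CPM in MEFs, and Ccne1 by 0.34, at 33.3 CPM there. DNA methylation genes had 2 past as higher of 20 (Dnmt3a and Zfp57), imprinted genes 6 as higher and 1 as lower of 45, and germline genes 1 of 26 (Rhox5 by 0.62). Ribosomal protein genes had 1 of 79 past (Rpl38 by 0.44), and none passed of 43 histone genes, 4 Y-linked genes and the 2 noncoding RNAs of the X inactivation centre.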

How the data were processed

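RNA-seq of the 4 naïve libraries, 4 primed libraries and 1 MEF library was used, grouped by sample title, with early and late columns read as P5 and P15. The deposited file holds raw counts per Ensembl gene: the authors trimmed reads with Cutadapt, aligned them to mm10 with HISAT2 (-k 20) and counted them with featureCounts, after poly(A) libraries made with a NEBNext Ultra kit. Tool versions, the annotation release, strand and the treatment of reads with several alignments are not given in the sources used here. Of 54232 gene IDs, 54165 had a name in GENCODE M21, while 92 spike-in entries, all at 0 counts, were dropped. Symbols without strand information may share reads with antisense or overlapping genes.

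Counts were fitted with edgeR 4.0.16 (R 4.3.3), glmQLFit and glmQLFTest, two-sided, on the libraries compared only, without a replicate block, with TMM scaling and a filter of 10 or more counts in at least 2 libraries, and p-values were adjusted by Benjamini-Hochberg over all genes tested. A gene passed at an adjusted p under 0.01 and was called when its fold change was also at least 2. CPM are on the TMM scale of the naïve fit, and the SE is the log2 fold change divided by the root of F. The interaction of state and passage was fitted on the 8 naïve and primed libraries. The fits were tested on simulated data, where all 50 genes given a 2-fold change among 15426 naïve genes passed (100%). The changed genes were drawn from those with a mean of at least 50 counts, and every gene had the same dispersion. The simulation therefore does not show how often genes with fewer counts or a larger spread would pass. Named genes were the 12 with the largest change in each direction (mean of at least 5 CPM in the higher group, libraries apart), list members past the threshold, a few marker genes and the 5 largest interactions in each direction, with others named as chosen after their values were seen. The 33 lists were written from general knowledge, and the members and lists were chosen with earlier results of these data known, so no list was tested and counts are to be read against the shares of all genes. Alternatives were other scalings, no low-count filter, the fit of 8 libraries, a replicate block, DESeq2 1.42.0, genes high in MEFs left out, thinned counts and each library left out.

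Same-numbered naïve libraries did not deviate together (correlation 0.0626), so the numbers were not taken as pairs. Replicates differed by more than sampling noise (chi-square per gene 2.90 at P5 and 3.28 at P15) and counted as separate libraries. Promoter sequences are from RefSeq on GRCm38.p6, matched by symbol. Not every gene of the lists is reported singly here.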

Additional observations from a re-analysis of the deposited data

Results flagged for a closer look

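Groups of 2 libraries are too small for a search for outlying samples, so the results listed here are those whose passage change differed between the primed and the naïve state by the interaction (edgeR's quasi-likelihood test, adjusted p under 0.01), which held for 4030 of 16926 genes. Among the 41 genes named by size of change, as markers or for their interaction, 32 differed, 19 with a higher and 13 with a lower change in primed cells. Genes named for their interaction were chosen by this same contrast, so the 32 cannot be read against the share of all genes.

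Interferon-stimulated and immune genes had a higher change in primed cells, by 4.16 on the log2 scale for Isg15, 4.13 for Ifit1, 4.08 for Oasl2, 3.88 for Ccl5, 3.47 for Usp18, 3.44 for Rtp4, 3.40 for Ifit3, 3.39 for Trim30a, 3.36 for Irf7, 2.82 for Rarres2 and 2.46 for Ifi203. The same held for Fosb (6.01) and Cubn (3.55). Of matrix genes, Aspn (3.05), Col14a1 (1.55) and Fibin (1.11) rose more in primed cells, while Col7a1 (-0.54), Ptn (-0.91), Eln (-1.06) and Rgs5 (-1.91) had a lower change there.

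Pluripotency genes differed on both sides, with Nanog at 1.38, Pou5f1 at 1.36 and Klf4 at 0.61, against Sox2 at -0.39, Dppa3 at -2.46, Esrrb at -3.72 and Zfp42 at -6.38. The other genes with a lower change in primed cells were 3830417A13Rik (-3.11), the fatty acid transporter gene Slc27a6 (-3.17), Zfp951 (-4.00), the clathrin adaptor gene Ap1m2 (-4.75) and Gm46332 (-6.96). In primed cells 25 of 30 fibroblast markers passed the test as higher at P15 (23.9% of all genes), and their part in these differences was not tested.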

How the results depend on the processing

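The count of called genes, 175, lay between 121 and 218 under other scalings, without a low-count filter, in the fit of 8 libraries, in DESeq2's Wald test (148) and with counts thinned to the smallest library, and between 137 and 174 with each library left out. With genes above 2 times their naïve level in MEFs left out, by construction of that choice, 106 genes were called, and the higher ones fell from 64 to 14. Counts at any fold moved more. Genes higher at P15, 653 in the report, numbered 228 without the low-count filter, 389 without genes high in MEFs and 294 to 700 with each library left out. Genes lower at P15, 765 in the report, numbered 323 without the filter and 419 to 685 with each library left out, and the cause was not tested. With a replicate block they were 1272 and 1345. As the replicate numbers did not pair the libraries, this is no measure of the effect. Library size alone moved the median of all genes to -0.023 and gave 628 higher and 1058 lower genes.

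Interferon-stimulated genes past the test as lower numbered 21 to 29 under these alternatives and 24 to 26 with each library left out, and glycolysis and hypoxia genes 24 to 29. Of the 125 named genes that passed, 103 passed with each library left out. Gata4, Msx2 and Zscan4c were lost with any library left out, with adjusted p of up to 0.056, 0.107 and 0.029, and 19 others with 1 to 3 libraries left out. Values that did not pass changed sign with 1 library left out: Nanog ranged from -0.017 to 0.076, Gata6 from -0.469 to 0.071, Ifnar1 from -0.071 to 0.111, Ifnar2 from -0.063 to 0.159 and Zscan4f from -0.033 to 0.408. DESeq2 gave no adjusted p for 1825 genes.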
